A study of Mus musculus with 2 samples.

Results

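The genes described are the nuclear and mitochondrial genes whose symbols place them in the respiratory chain or the ATP synthase. They were chosen by symbol: those starting with Nduf, Uqcr, Atp5 or Cox followed by a digit from 4 to 8 make the nuclear set, and those starting with mt-Nd, mt-Co, mt-Cytb or mt-Atp make the mitochondrial set. A member also needed at least 50 unique molecular identifiers (UMIs, each standing for 1 captured transcript) over both libraries. The rule gave 84 nuclear and 13 mitochondrial members, 97 of the 28692 genes listed. Of 88 nuclear symbols that matched, 4 were below the minimum: Cox7b2 had 0 UMIs, Cox8c 1, Ndufa4l2 3 and Cox8b 4. The members with the fewest UMIs were Atp5s with 448, Ndufaf5 with 482, mt-Nd6 with 497 and Ndufaf6 with 544, so no symbol lay near the minimum.

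The data are 2 droplet-based single-cell libraries of lung cells from C57BL/6 mice, sorted by flow cytometry for Epcam, a surface protein of epithelial cells. One library is labelled Control and the other NAPH, an abbreviation for the injury; the sources used here do not give its dose, the time after it, or the age, sex and number of mice. With 1 library per condition nothing separates the condition from the library, so no test between conditions was possible, and every interval below is a 95% interval for counting error only. After filtering, 3211 Control cells and 3572 NAPH cells were kept, with a median of 8304 and 9417 UMIs per barcode before filtering; 14 barcodes occur in both libraries.

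The respiratory chain moves electrons from NADH and succinate to oxygen and pumps protons across the inner mitochondrial membrane, and the ATP synthase uses that gradient to make ATP. Complex I (Nduf and mt-Nd genes), complex III (Uqcr genes and mt-Cytb), complex IV or cytochrome c oxidase (Cox and mt-Co genes) and the ATP synthase (Atp5 and mt-Atp genes) are each built from subunits of both genomes, whereas complex II is wholly nuclear. The symbols Atp5s and Atp5sl, named Dmac2l and Dmac2 in RefSeq, meet the rule but were given no role in these complexes. In the lung, surfactant-producing alveolar type 2 (AT2) cells and multiciliated cells are known for dense mitochondria.

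Cells were sorted into classes by fixed thresholds per 10000 UMIs of the cell. AT2 cells had at least 500 UMIs of Sftpc, a surfactant protein gene, and numbered 1793 in Control and 2501 in NAPH. Secretory cells had at least 1000 UMIs of Scgb1a1, the club cell secretory protein gene, and numbered 749 and 186. Ciliated cells had at least 10 UMIs of Foxj1, Ccdc153 and Tmem212 together and numbered 187 and 198. The 472 and 672 cells that met no threshold are called remaining cells, and the 10 and 15 that met more than 1 were kept apart. The 12 listed ciliated markers include Foxj1, Ccdc153 and Tmem212, so their sum is partly fixed by the class rule. It was 22994 UMIs per 1000000 (CPM) in Control and 16710.1 in NAPH ciliated cells against at most 304 CPM elsewhere. The lists of 12 AT2 and 12 secretory markers likewise include Sftpc and Scgb1a1, and all their genes had UMIs in every class. The remaining cells did not hold to the label of epithelium: 449 of 472 in Control and 531 of 672 in NAPH had a UMI of a leukocyte gene (Ptprc, Tyrobp, Laptm5 or Coro1a), and 10 leukocyte markers summed to 7317 and 5409 CPM there against at most 119 CPM in the other classes. Sftpc and Scgb1a1 were found in every class (2482 to 5716 and 3036 to 24216 CPM outside their own). The source of these transcripts was not tested.

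The nuclear set took a larger share of UMIs in NAPH than in Control in AT2, secretory and remaining cells and a smaller one in ciliated cells. In AT2 cells it stood at 22142 CPM in Control and 25809.9 in NAPH, in secretory cells at 12493 and 18735, in ciliated cells at 35256 and 32411, and in remaining cells at 22332 and 24745. The mitochondrial set stood at 36554 and 33426 CPM in AT2 cells, 21938 and 25552 in secretory cells, 44570.0 and 51572 in ciliated cells, and 24389.5 and 26827 in remaining cells. On this scale ciliated cells held the highest level of both sets in both libraries, and secretory cells the lowest. Per 1000000 UMIs outside mitochondrial and secreted-product genes the order was another. The nuclear set was then at 35506 and 38324 in AT2, 36513 and 36242 in secretory, 38035 and 34919 in ciliated and 23423 and 26151 in remaining cells. The mitochondrial set was at 58617 and 49633, 64117 and 49430, 48084 and 55562, and 25581 and 28353 in the same order, so remaining cells were lowest for both sets and Control secretory cells held the highest mitochondrial level of Control. The low secretory CPM stands beside a single product: Scgb1a1 alone held 597588 CPM of secretory UMIs in Control and 358446 in NAPH. A CPM share moves with such products, so each change between libraries is also given on the log2 scale relative to the median of all genes tested in the class (those with at least 50 UMIs), which lay at 0.10 in AT2, 0.60 in secretory, 0.06 in ciliated and 0.08 in remaining cells.

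On that scale the nuclear set differed by 0.125 (0.12 to 0.13) in AT2 cells, -0.013 (-0.024 to -0.0012) in secretory cells, -0.18 (-0.20 to -0.17) in ciliated cells and 0.07 (0.06 to 0.085) in remaining cells. The mitochondrial set differed by -0.23 (-0.23 to -0.22), -0.38 (-0.39 to -0.37), 0.15 (0.13 to 0.16) and 0.06 (0.05 to 0.07) in the same order. The ratio of mitochondrial to nuclear UMIs needs no scaling. It was 1.65 (1.64 to 1.66) in Control and 1.30 (1.29 to 1.30) in NAPH AT2 cells, 1.76 (1.75 to 1.76) and 1.36 (1.35 to 1.38) in secretory cells, 1.26 (1.25 to 1.28) and 1.59 (1.58 to 1.61) in ciliated cells, and 1.09 (1.08 to 1.10) and 1.08 (1.08 to 1.09) in remaining cells. The ratio was therefore lower in NAPH in AT2 and secretory cells, higher in ciliated cells, and level in remaining cells. Per cell, the middle 50 percent of AT2 cells ran from 1.32 to 2.04 in Control and from 0.984 to 1.64 in NAPH, so single cells of the libraries overlapped widely. The secretory difference in the ratio, -0.36 on the log2 scale, was -0.066 with every cell thinned to 3500 UMIs, -0.080 as a mean over cells and -0.18 in cells without Upk3a and Spink5. On plain CPM the secretory sets differed by 0.58 (nuclear) and 0.22 (mitochondrial), both with the opposite sign.

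**Figure D1:**
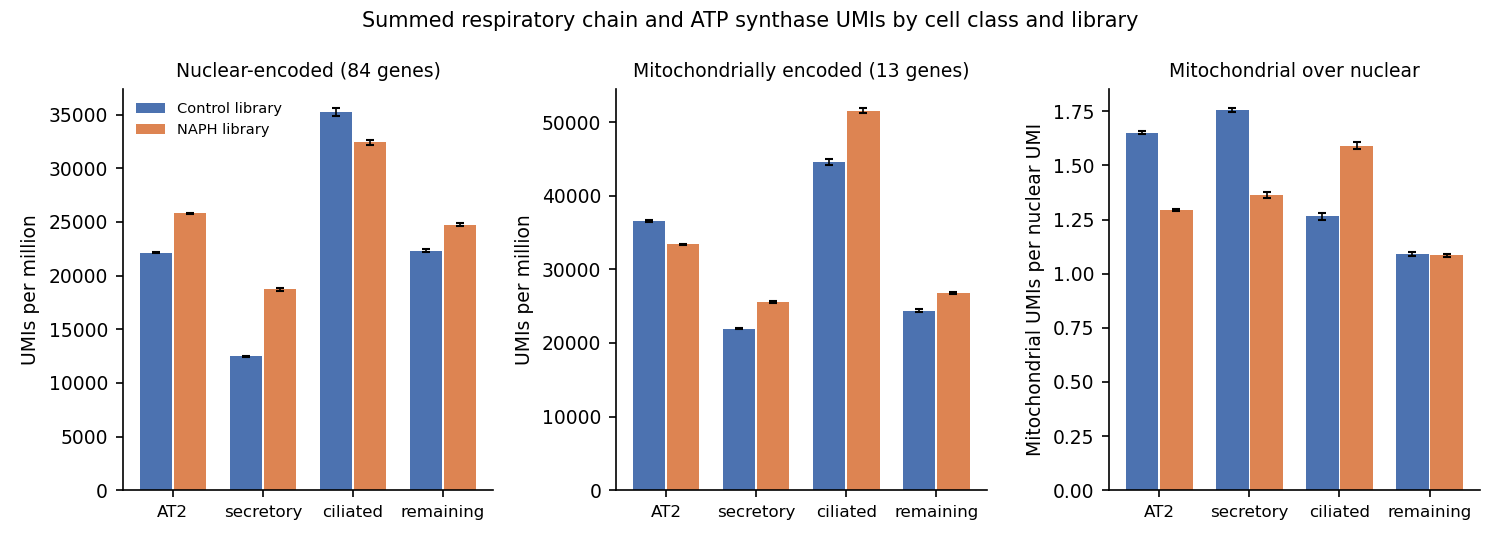
Summed UMIs of the 84 nuclear genes (left, CPM), the 13 mitochondrial genes (middle, CPM) and their ratio (right) for each cell class in the Control library (blue) and the NAPH library (orange); whiskers are 95% intervals for counting error. The ratio is lower in NAPH in AT2 cells (1.65 and 1.30) and secretory cells (1.76 and 1.36) and higher in ciliated cells (1.26 and 1.59).

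In AT2 cells 71 of the 84 nuclear members lay above the median of all genes, with a median difference of 0.13 on the log2 scale and a range from -0.75 to 0.70. A fold of 1.5 was passed upward by 1 nuclear member, Cox4i2, and downward by 1, Cox6b2; of all 10887 genes tested 6.83% passed it upward and 6.46% downward, and 82 of the 84 stayed within it. By role, 6 of 7 complex I core genes, 26 of 29 accessory genes, 5 of 7 assembly factor genes, 6 of 8 complex III genes, 11 of 16 complex IV genes and all 15 ATP synthase genes lay above the median. Atp5f1, which encodes subunit b of the stalk that holds the ATP synthase in place, had 303 CPM in Control and 478 in NAPH, a relative ratio of 1.48 (1.43 to 1.53). Uqcrq, a small subunit of complex III, had 315 and 468 CPM (1.39, 1.34 to 1.44). The complex I assembly factor genes Ndufaf4 (12.0 and 17.3 CPM) and Ndufaf5 (4.88 and 6.93 CPM) followed at 1.35 (1.13 to 1.62; 170 and 427 UMIs) and 1.33 (0.9999 to 1.79; 69 and 171 UMIs). The 4 lowest members were all listed under complex IV. Cox7a2l had 360 CPM in Control and 286 in NAPH (0.742, 0.716 to 0.770), and Cox7a1, the muscle-type isoform of subunit 7a, had 10.5 and 9.04 CPM (0.803, 0.650 to 0.995).

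The higher nuclear level moved with Lrg1, a secreted glycoprotein gene detected in 738 of 1793 Control and 2298 of 2501 NAPH AT2 cells. In AT2 cells without a Lrg1 UMI (1055 and 203 cells) the nuclear set differed by -0.0018 on the relative log2 scale, while the mitochondrial set still differed by -0.21. Within NAPH the nuclear set stood at 23867 CPM without Lrg1, 24922 with fewer than 10 Lrg1 UMIs per 10000 and 26517 with at least 10. Within Control it stood at 21848, 22394 and 23613 CPM. On plain CPM the nuclear set was therefore higher in NAPH in each of the 3 groups, also in cells without Lrg1. Cell depth moved with Lrg1 as well, with medians of 7412, 9142 and 10202 UMIs in the 3 NAPH groups. The nuclear set differed by 0.031 between AT2 cells with totals of 6000 to under 10000 UMIs. The part of depth in this order was not tested.

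**Figure D2:**
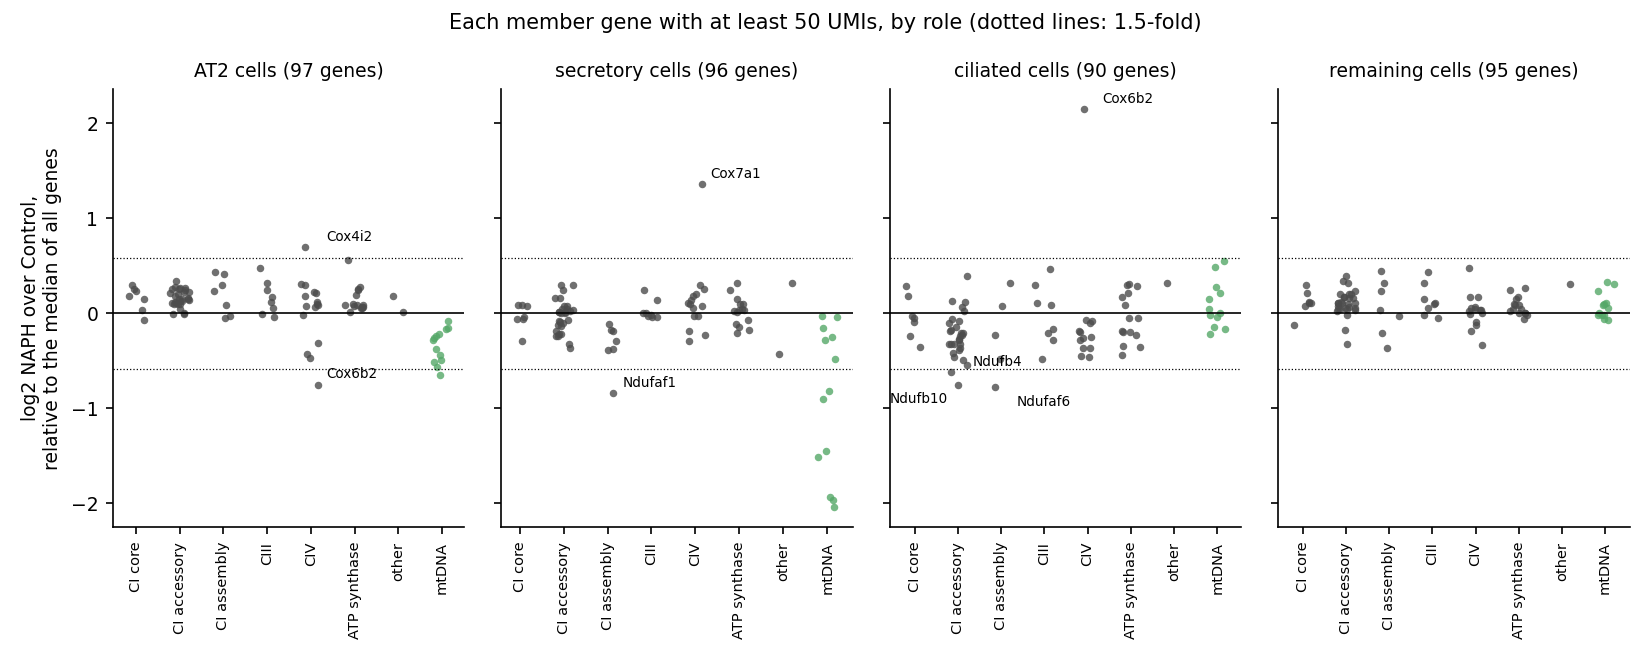
Each point is 1 member gene with at least 50 UMIs in the class: its log2 ratio of NAPH over Control relative to the median of all genes, by role (CI, CIII and CIV are complexes I, III and IV; mtDNA marks the mitochondrially encoded genes, green). Nuclear members cluster above 0 in AT2 cells and below 0 in ciliated cells, and the mitochondrial genes spread from -2.05 to -0.03 in secretory cells; names mark nuclear members past a fold of 1.5.

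Cytochrome c oxidase has subunits with more than 1 gene, and the AT2 class differed from the other classes, each taken whole, in which of these it used. Cox6a1 encodes the widespread form of subunit 6a and Cox6a2 the form known from heart and skeletal muscle. Cox6a2 held 43.2% (42.3 to 44.1) of the pair's UMIs in Control AT2 cells and 30.7% (30.1 to 31.4) in NAPH AT2 cells. Elsewhere its share was 1.52% and 1.56% in secretory, 0.216% and 1.30% in ciliated and 3.77% and 4.12% in remaining cells. In secretory cells Cox6a2 had 1.42 and 1.33 UMIs per 1000 Sftpc UMIs, beside 1.47 and 1.32 in AT2 cells and 0.702 and 1.68 in ciliated cells. Whether these UMIs came from other cells was not tested. In Control remaining cells 62 of its 78 UMIs came from the 23 cells without leukocyte transcripts. It was found in 9 of these 23 cells, at 393 CPM over all 23 and 31.3 UMIs per 1000 Sftpc UMIs. Control AT2 cells held Cox6a2 at 353 CPM. In NAPH remaining cells 74 of 139 Cox6a2 UMIs came from the 141 cells without leukocyte transcripts, at 54.3 CPM and 7.23 UMIs per 1000 Sftpc UMIs. Another 65 came from the 531 cells with leukocyte transcripts, at 2.91 UMIs per 1000 Sftpc UMIs. Itgad, the only gene that overlaps Cox6a2, had 12 UMIs over both libraries.

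Both libraries' AT2 cells mostly held the isoforms side by side: 1361 of 1793 Control cells (75.9%) and 1783 of 2501 NAPH cells (71.3%) had UMIs of both, and 62 and 27 had Cox6a2 alone. The level of Cox6a2 was 353 CPM in Control and 271 in NAPH, a relative ratio of 0.718 (0.692 to 0.745), and Cox6a1 was at 464 and 611 CPM. Thinned to 3500 UMIs per cell, 60.2% of Control and 49.1% of NAPH AT2 cells had a Cox6a2 UMI; unthinned, 79.4% and 72.4% did. Under the same thinning 1.34% of Control and 1.08% of NAPH secretory cells had one. The share was lower at higher Lrg1 level in both libraries: 45.3%, 41.2% and 33.7% in Control and 40.6%, 34.2% and 27.8% in NAPH across the 3 Lrg1 groups. Within each Lrg1 group it was lower in NAPH, and at cell totals of 6000 to under 10000 UMIs it was 43.7% and 30.7%.

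Other pairs showed smaller shares. Cox4i2, the lung-enriched and oxygen-responsive form of subunit 4, made up 1.81% (1.58 to 2.06) of subunit 4 UMIs in Control and 2.76% (2.56 to 2.97) in NAPH AT2 cells, at 15.98 and 27.7 CPM, with a relative ratio of 1.62 (1.39 to 1.89). Secretory, ciliated and remaining cells had between 1 and 14 Cox4i2 UMIs. Cox6b2, the form of subunit 6b known from testis, made up 6.82% of its pair in Control and 3.92% in NAPH AT2 cells (38.2 and 24.2 CPM; 0.593, 0.527 to 0.668). Of the summed UMIs of Cox7a1, Cox7a2 and Cox7a2l, Cox7a2l held 42.0% and 31.6% in AT2 cells and 46.7% and 40.9% in secretory cells. In ciliated cells it held 24.3% and 22.5%, and in remaining cells 60.7% and 57.9%. Cox7a2l is a 7a-like gene, and whether it stands in for subunit 7a was not tested. Subunit 8 came from Cox8a alone apart from 1 to 3 UMIs in single classes, and no class had more than 3 UMIs of Ndufa4l2. The 3 genes of ATP synthase subunit c, which encode 1 mature protein, were used in similar shares by AT2 and secretory cells (Atp5g2 at 45.2% to 51.2%), with Atp5g2 at 48.4% in Control and 38.7% in NAPH ciliated cells. UMIs count 3' ends, so these shares compare classes and libraries, not protein amounts.

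**Figure D3:**
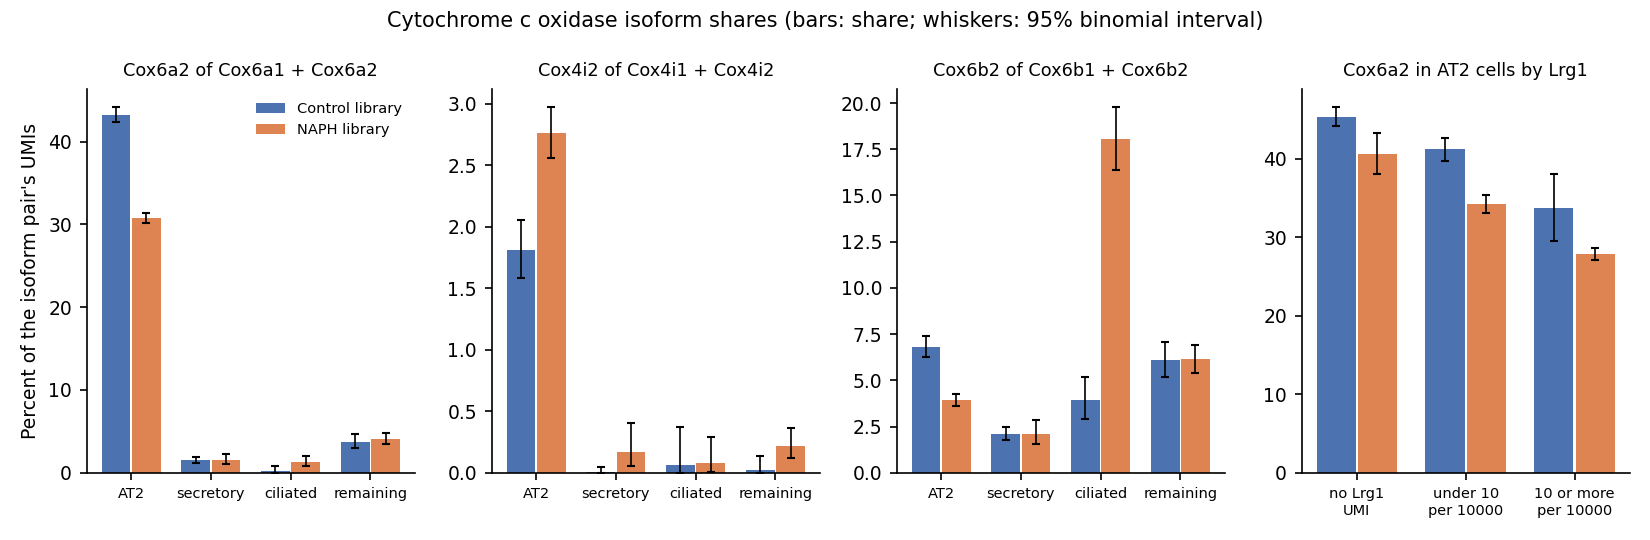
Share of an isoform pair's UMIs held by Cox6a2, Cox4i2 and Cox6b2 in each class (Control blue, NAPH orange), and the Cox6a2 share in AT2 cells grouped by Lrg1 level (right); bars start at 0, whiskers are 95% binomial intervals and the vertical scales differ between panels. Cox6a2 stands at 43.2% and 30.7% in AT2 cells and at 4.12% or less in the other classes, each taken whole, and Cox6b2 reaches 18.0% in NAPH ciliated cells.

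All 13 mitochondrial genes lay below the median of all genes in NAPH AT2 and secretory cells, but by unequal amounts in secretory cells. With every cell thinned to 3500 UMIs, mt-Nd1 (0.077), mt-Co1 (0.24) and mt-Co3 (0.24) lay above it in secretory cells on the log2 scale. A fold of 1.5 downward was passed there by 7 of 13 mitochondrial genes, against 10.3% of the 9139 genes tested. mt-Nd4l was at 284 CPM in Control and 104 in NAPH secretory cells, a relative ratio of 0.242 (0.219 to 0.267). mt-Nd5 was at 533 and 206 CPM (0.255, 0.238 to 0.274), and mt-Nd6 at 8.27 and 3.28 CPM (0.262, 0.140 to 0.452) on 171 and 14 UMIs. These encode proton-pumping or adjoining membrane subunits of complex I. mt-Atp8, a small ATP synthase subunit, followed at 145 and 76.8 CPM (0.350), with mt-Nd2 at 2074 and 1147 CPM (0.365), mt-Nd3 at 312 and 253 CPM (0.535) and mt-Nd4 at 2401 and 2058 CPM (0.567). At the other end, the cytochrome c oxidase genes mt-Co1 (3397 and 5039 CPM) and mt-Co3 (2759 and 4049 CPM) had relative ratios of 0.980 and 0.970, mt-Atp6 0.894, mt-Nd1 0.838, mt-Cytb 0.820 and mt-Co2 0.714. On plain CPM, mt-Co1, mt-Co3, mt-Atp6, mt-Nd1, mt-Cytb and mt-Co2 were higher in NAPH secretory cells and the other 7 lower. The unequal change within the set does not depend on the scaling.

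Complex I genes made up 33.5% (33.4 to 33.6) of mitochondrial UMIs in Control and 23.4% (23.1 to 23.6) in NAPH secretory cells. The share was 32.5% and 23.5% in secretory cells of 10000 to under 20000 UMIs and 33.7% and 23.2% in those of at least 20000, so it was nearly constant over depth within each library. It was also 33.5% and 23.2% in cells without Upk3a and Spink5, genes that 57 of 749 Control but 117 of 186 NAPH secretory cells expressed, and 33.2% and 23.5% in cells with either. In the other classes the share was 25.1% and 23.9% (AT2), 27.1% and 26.1% (ciliated) and 22.1% and 21.0% (remaining). The Control secretory cells thus had the highest share of all groups of cells.

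In AT2 cells the lowest relative ratios were again mt-Nd4l (226 and 154 CPM; 0.637, 0.607 to 0.668), mt-Nd5 (373 and 269 CPM; 0.675, 0.651 to 0.700) and mt-Nd2 (2417 and 1806 CPM; 0.699, 0.689 to 0.709), and mt-Nd1 was nearest to the median (3000.4 and 3020.8 CPM; 0.942, 0.931 to 0.953). A fold of 1.5 downward was passed by 1 of 13, near the 6.46% of all genes. In ciliated cells mt-Co1 (7180.3 and 10980.3 CPM; 1.46, 1.43 to 1.5) and mt-Nd1 (3184 and 4673 CPM; 1.41, 1.35 to 1.46) had the highest ratios and mt-Atp6 was lower (9940 and 9257 CPM; 0.892, 0.871 to 0.913). In remaining cells mt-Cytb had 1850.5 and 2406 CPM (1.23, 1.20 to 1.27). It was not the highest there, since the others ran from 0.951 to 1.26. mt-Nd6, the one gene on the other strand of the mitochondrial genome, had only 8 to 171 UMIs in any class and library.

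Some of these genes share bases, and the sources used here do not say how reads on shared bases were assigned. In the GENCODE vM21 annotation (GRCm38) mt-Atp8 and mt-Atp6 overlap by 43 bases, mt-Nd5 and mt-Nd6 by 14 on opposite strands, mt-Nd4l and mt-Nd4 by 7 and mt-Atp6 and mt-Co3 by 1. The first stretch, chrM:7927-7969 on the plus strand, is shown because both genes are carried on 1 transcript yet had relative ratios of 0.350 and 0.894 in secretory cells; the capitals mark the first codon of mt-Atp6.
mt-Atp8 and mt-Atp6: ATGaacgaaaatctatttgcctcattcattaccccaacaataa

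**Figure D4:**
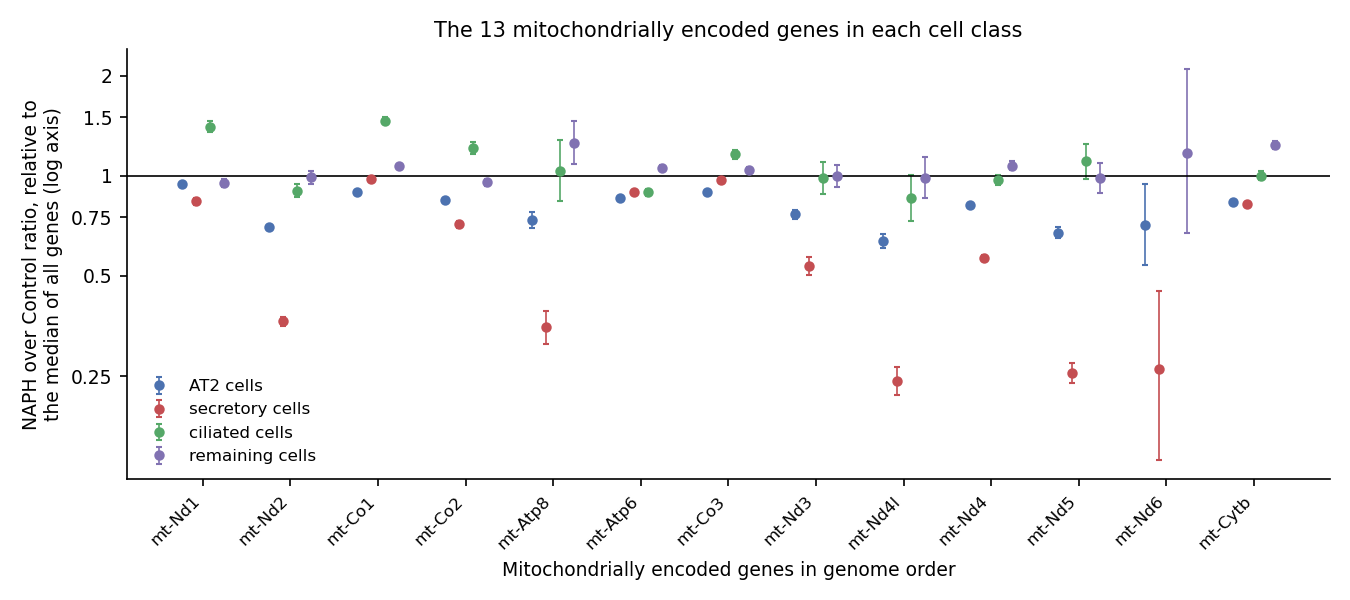
Ratio of NAPH over Control relative to the median of all genes (log axis) for the 13 mitochondrially encoded genes, in genome order, in each class; whiskers are 95% intervals for counting error, and a gene with fewer than 50 UMIs in a class is left out. Secretory cells (red) run from 0.242 for mt-Nd4l to 0.980 for mt-Co1, whereas AT2 cells (blue) stay between 0.637 and 0.942.

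In secretory cells the nuclear members were evenly split, 42 above and 41 below the median of all genes among the 83 tested, with a median of 0.0046. The 12 AT2 markers summed to 11349 CPM in Control and 27386 in NAPH secretory cells, and their part in the secretory values was not tested. A fold of 1.5 was passed upward by 1 member and downward by 1, against 9.71% and 10.3% of all genes. The one above was Cox7a1 (35 and 28 UMIs, 1.69 and 6.55 CPM; 2.56, 1.5 to 4.33), which is too low for the naming rule and was named after its value was seen. The one below was Ndufaf1, a complex I assembly factor gene (103 and 18 UMIs, 4.98 and 4.21 CPM; 0.559, 0.319 to 0.928). All 7 genes listed as assembly factors of complex I lay below the median, among them Ndufaf7 (34.0 and 39.3 CPM; 0.766) and Ndufaf3 (19.2 and 23.6 CPM; 0.814, 0.648 to 1.01). Of the accessory subunits, Ndufb3 (119 and 139 CPM; 0.776) and Ndufa5 (89.5 and 108 CPM; 0.797) were lowest and Ndufa1 (173 and 323 CPM; 1.23) and Ndufs4 (43.9 and 81.4 CPM; 1.23) highest. Atp5f1 was high here too, at 161 and 303 CPM (1.25, 1.17 to 1.33). So was Atp5sl, which was given no role in the ATP synthase, on 82 and 32 UMIs (1.25, 0.803 to 1.90). Summed relative ratios were 0.812 (0.735 to 0.896) for the assembly factor genes, 0.986 for core and 0.981 for accessory subunits of complex I, 1.0 for complexes III and IV and 0.991 for the ATP synthase.

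In ciliated cells the nuclear members lay mostly below the median of all genes, 57 of the 78 tested, with a median of -0.20. A fold of 1.5 was passed upward by 1 (12.6% of the 7065 genes tested) and downward by 3 (7.39%). The downward ones were complex I genes: the accessory subunit genes Ndufb10 (329 and 204 CPM; 0.594, 0.513 to 0.688) and Ndufb4 (239 and 162 CPM; 0.651, 0.550 to 0.771) and, on 26 and 27 UMIs, the assembly factor gene Ndufaf6 (0.583, 0.327 to 1.04). Ndufa6 (499 and 357 CPM; 0.684), Ndufc2 (823 and 611 CPM; 0.710) and Uqcrb of complex III (566 and 422 CPM; 0.714) came next. By role, 24 of 29 accessory genes and 12 of 13 tested complex IV genes lay below the median, against 4 of 8 complex III genes and 9 of 15 ATP synthase genes. Cox8a, the subunit 8 gene, was at 1658 CPM in Control and 1262 in NAPH (0.729, 0.686 to 0.776). Above the median stood Uqcrc2, a core subunit of complex III (61.0 and 88.1 CPM; 1.38, 1.03 to 1.86), Ndufa9 (38.3 and 52.3 CPM; 1.31, 0.903 to 1.93), Ndufaf7 (37.3 and 48.6 CPM; 1.25, 0.852 to 1.85) and Atp5c1, the gamma subunit of the ATP synthase (175 and 226 CPM; 1.24, 1.04 to 1.48). AT2 transcripts moved with the library in these cells: 12 AT2 markers summed to 4024 CPM in Control and 9550 in NAPH ciliated cells, and 12 secretory markers to 34931 and 22299 CPM. Their part in the result was not tested.

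The 1 member past the fold upward was Cox6b2, with 47 UMIs (42.8 CPM) in Control and 372 UMIs (199 CPM) in NAPH ciliated cells, a relative ratio of 4.44 (3.27 to 6.15). Its share of the subunit 6b pair was 3.92% and 18.0%. Few cells carried it: 15 of 187 in Control and 32 of 198 in NAPH, and the 10 highest cells held 89.4% and 89.0% of its UMIs. Most came from cells of at least 15000 UMIs, which numbered 3 in Control and 22 in NAPH and stood at 379 and 607 CPM, against 16.7 and 38.6 CPM in the shallower cells. The deep cells also held Ccno, a gene of cells that are building cilia, at 341 and 394 CPM against 7.85 and 16.3, with Foxj1 near the level of the others (1011 and 1194 against 1150.2 and 1285 CPM). Transcripts of other classes differed with depth as well: Sftpc stood at 2175 against 2628 CPM in Control and 4466 against 6207 in NAPH, and Scgb1a1 at 53038 against 21978 and 11028 against 8027. Their part in the result was not tested. At totals of 6000 to under 10000 UMIs the relative log2 value of Cox6b2 was -0.06, and over all cells under 15000 UMIs it was 1.15 on 17 and 52 UMIs, beside 2.15 in all ciliated cells.

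Set against AT2 cells, ciliated cells held the nuclear set at a level close to other genes in Control (0.0037 on the relative log2 scale, -0.01 to 0.02) and below them in NAPH (-0.36, -0.37 to -0.35). Median shifts of all genes were 0.67 and 0.69. In Control 11 of 84 nuclear members passed a fold of 1.5 upward and 15 downward, against 29.5% and 30.6% of the 9923 genes tested, and in NAPH 5 and 24, against 29.3% and 28.8% of 11032. In both libraries 4 of 84 nuclear members passed a fold of 1.5 upward and 12 downward, against 23.0% and 23.0% of the 9907 genes tested in both. Ndufaf3, a complex I assembly factor gene, was highest, with 39.1 CPM in AT2 and 300 CPM in ciliated cells in Control (4.83, 4.20 to 5.54) and 44.2 and 329 CPM in NAPH (4.61, 4.17 to 5.10). The 3 Control and 22 NAPH ciliated cells of at least 15000 UMIs held Ndufaf3 at 822 and 605 CPM, and the shallower ones at 259 and 221 CPM. In Control 59.4% of ciliated cells thinned to 3500 UMIs had a Ndufaf3 UMI against 12.9% of AT2 cells, and in NAPH 57.1% against 14.0%; unthinned the shares were 74.9% and 26.5%, and 75.8% and 33.4%. The other 3 were Ndufaf7 (1.87 and 2.33), Atp5s (2.45 and 2.58, on 23 and 51 ciliated UMIs) and Ndufab1, the mitochondrial acyl carrier protein that is also a complex I subunit (141 and 515 CPM in Control, 172 and 443 CPM in NAPH; 2.29 and 1.60). Cox6b2 was 0.706 in Control and 5.08 in NAPH and Ndufaf6 2.67 and 1.22, so neither held in both libraries.

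Among the 12 lower members were Cox6a2, Cox4i2, Cox7a2l, Atp5d, Atp5f1, Atp5h and the complex I genes Ndufa5, Ndufa9, Ndufa10, Ndufs8 and Ndufv1. Cox6a2 had 2 and 18 UMIs in ciliated cells (0.0032, 0.0004 to 0.0117 in Control and 0.022, 0.013 to 0.0347 in NAPH), and Cox4i2 had 1 and 2 UMIs (0.0359, 0.0009 to 0.202 and 0.0239, 0.0029 to 0.0867). Atp5d, the delta subunit gene of the ATP synthase, stood at 442 CPM in AT2 and 291 in ciliated cells of Control (0.415). In NAPH it stood at 506 and 294 CPM (0.359). Ndufs8, an iron-sulfur core subunit of complex I, had 99.0 and 62.8 CPM in Control and 126 and 74.2 in NAPH (0.400 and 0.365), and the accessory gene Ndufa5 142 and 100.2 CPM and 163 and 77.9 (0.445 and 0.297). None of the 13 mitochondrial genes passed the fold in both libraries. The mitochondrial set was -0.38 in Control and -0.06 in NAPH; on plain CPM both sets were higher in ciliated than in AT2 cells in both libraries.

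In remaining cells 65 of 82 nuclear members tested lay above the median of all genes and none passed a fold of 1.5 in either direction, against 15.3% and 10.2% of the 9438 genes tested. Ndufa4, a subunit now placed in complex IV, had 232 and 339 CPM (1.39, 1.28 to 1.5). The small complex III genes Uqcr10 (319 and 453 CPM; 1.35) and Uqcr11 (336 and 442 CPM; 1.25) and the complex I genes Ndufc2 (171 and 236 CPM; 1.31) and Ndufc1 (167 and 222 CPM; 1.27) followed. Lowest were Ndufaf2 (36.2 and 29.6 CPM; 0.778), Ndufa9 (45.3 and 38.1 CPM; 0.798), Ndufaf6 (12.5 and 11.3 CPM; 0.863, 0.588 to 1.27), Cox5a (379 and 350.0 CPM; 0.877) and Ndufb7 (253 and 235 CPM; 0.881). This class is mixed, and its makeup moved with the library: cells without leukocyte transcripts numbered 23 in Control and 141 in NAPH. Among those alone the nuclear set differed by -0.0036, the mitochondrial set by 0.24 and Ndufa4 by -0.0037 on the relative log2 scale.

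Within every class and library the ratio of mitochondrial to nuclear UMIs was lower in deeper cells over the ranges with at least 20 cells. In Control AT2 cells it was 2.14 below 6000 UMIs, 1.65 from 6000 to under 10000 and 1.42 from 10000 to under 20000; in NAPH it was 2.94, 1.42 and 1.11. The AT2 libraries therefore had opposite orders below 6000 UMIs (264 and 229 cells) and above. In secretory cells it was 2.52 and 1.64 from 10000 to under 20000 UMIs and 1.62 and 1.10 from 20000 on. In ciliated cells it was 1.33 and 2.75 below 6000 UMIs and 1.06 and 1.70 from 6000 to under 10000, so the higher NAPH ratio was present in both ranges. In remaining cells it was 1.30 and 1.41, 1.12 and 1.11, and 0.968 and 0.989 in the 3 ranges below 20000 UMIs. Over cells, Spearman's rho between the total and the mitochondrial share ran from -0.14 (Control ciliated) to -0.71 (NAPH secretory), as a description of 186 to 2501 cells that share a library.

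**Figure D5:**
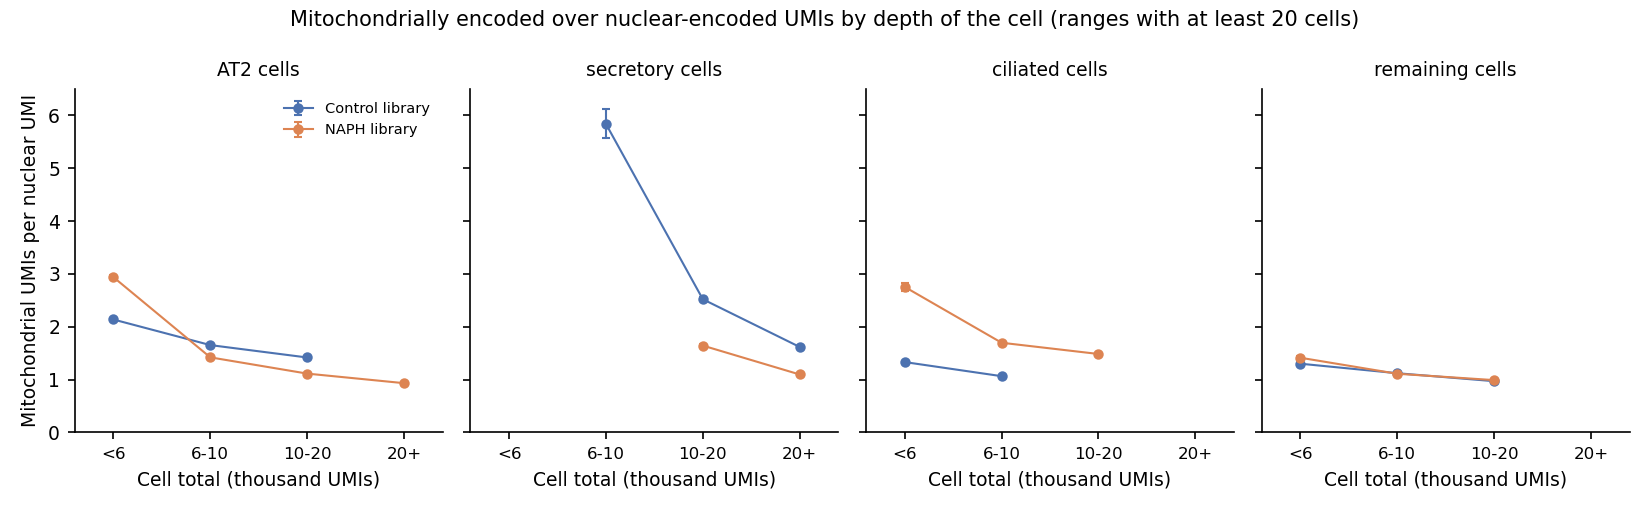
Mitochondrial UMIs per nuclear UMI (vertical axis, starting at 0) by range of the cell's total UMIs, for each class in the Control library (blue) and the NAPH library (orange); whiskers are 95% intervals for counting error and ranges with fewer than 20 cells are left out. Deeper cells have lower ratios throughout; in ciliated cells the NAPH points (2.75 and 1.70) lie above Control (1.33 and 1.06), and in secretory cells of at least 10000 UMIs they lie below.

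Neighbouring mitochondrial pathways were read from fixed lists. In AT2 cells the summed ratio of 6 genes listed under complex II and cytochrome c was 1.23 (1.20 to 1.27). Highest were Cycs, the cytochrome c gene, at 104 and 169 CPM (1.52, 1.43 to 1.62) and Cyc1, a complex III gene, at 87.1 and 124 CPM (1.33). The complex II genes Sdha (1.01, 0.936 to 1.09) and Sdhc (1.07, 0.994 to 1.16) were lowest. Mitochondrial ribosome genes stood at 1.10 (1.09 to 1.11), 64 of 76 tested above the median, with Mrps6 (16.4 and 31.9 CPM; 1.82) and Mrps9 (61.7 and 33.7 CPM; 0.511) at the ends. Tricarboxylic acid cycle genes stood at 1.09, cytochrome c oxidase assembly genes at 1.05, uncoupling and antioxidant genes at 1.17 and glycolysis genes at 1.13. Mitochondrial DNA expression genes (1.01, 0.974 to 1.06) and regulators of mitochondrial genes (1.04, 0.960 to 1.12) were near the median. In ciliated cells the ribosome list was 0.854 (0.832 to 0.877), with 9 of 70 genes lower by a fold of 1.5 and 0 higher (7.39% and 12.6% of all genes tested). The uncoupling and antioxidant list was 0.765 (0.737 to 0.795) there, with 1 of 6 tested genes above the median. Its ends were Prdx5 at 1333 and 917 CPM (0.658) and Ucp2 at 567 and 624 CPM (1.05). Glycolysis genes stood at 1.22 (1.16 to 1.28) in ciliated cells. In secretory cells the lists ran from 0.960 to 1.15 and mitochondrial DNA expression was at 0.999 (0.926 to 1.08), beside the lower complex I transcripts of the mitochondrial genome. In remaining cells the uncoupling and antioxidant list was lowest (0.803, 0.781 to 0.826) and the other lists lay between 0.913 and 1.09.

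Promoter sequences from RefSeq (GRCm38.p6, 250 bases before to 50 after the start) were found for 71 of the 84 nuclear members. The NRF1 motif (GCGCA, any base, then GCGC) occurred on either strand in 16 of 71 (22.5%) against 6.60% of the promoters of 17491 protein-coding genes. The ETS motif CCGGAAG occurred in 14 (19.7%) against 11.9%, and the YY1 motif (AAGAT directly followed by GGCGG) in 5 (7.04%) against 1.27%. The motifs may overlap, and median GC content was 57.3% and 56.3%. NRF1, ETS family factors and YY1 are known regulators of respiratory genes. Of the 71 member promoters, 31 held at least 1 of these motifs. Those of Ndufa4 and Cox7a2, genes present in all classes, held none. The 200 bases before the start are printed for 4 members with contrasting patterns: Cox6a1 and Cox6b1, present in all classes, and Ndufaf3, higher in ciliated than in AT2 cells in both libraries, and Cox6b2, higher there in NAPH only, both relative to the median of all genes. Capitals mark motif matches (NRF1, or ETS read as CTTCCGG on the other strand); each promoter is read on the minus strand. Cox6a1 (chr5:115348959-115349158) held 2 NRF1 matches and 1 ETS match and Cox6b1 (chr7:30626115-30626314) 1 ETS match. Cox6b2 (chr7:4753095-4753294) and Ndufaf3 (chr9:108567437-108567636) held none of these letters in this window. The 4 members were picked by hand, and whether motifs go with the pattern of expression was not tested.
Cox6a1: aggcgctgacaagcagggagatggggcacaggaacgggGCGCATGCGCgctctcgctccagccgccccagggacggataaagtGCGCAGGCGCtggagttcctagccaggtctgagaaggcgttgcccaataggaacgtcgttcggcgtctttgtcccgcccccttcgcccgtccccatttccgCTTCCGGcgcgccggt
Cox6b1: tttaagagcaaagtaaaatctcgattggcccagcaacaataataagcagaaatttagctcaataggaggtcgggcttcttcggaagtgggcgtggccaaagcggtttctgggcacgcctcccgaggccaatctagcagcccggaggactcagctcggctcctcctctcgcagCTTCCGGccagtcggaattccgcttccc
Cox6b2: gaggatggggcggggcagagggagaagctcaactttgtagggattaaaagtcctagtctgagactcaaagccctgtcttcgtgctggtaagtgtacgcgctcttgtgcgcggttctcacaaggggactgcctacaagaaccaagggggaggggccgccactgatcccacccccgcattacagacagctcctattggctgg
Ndufaf3: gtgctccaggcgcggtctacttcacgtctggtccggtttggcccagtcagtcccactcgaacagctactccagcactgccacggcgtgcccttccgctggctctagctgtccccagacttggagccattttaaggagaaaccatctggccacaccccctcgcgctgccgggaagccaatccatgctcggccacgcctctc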

How the data were processed

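Both droplet libraries were deposited as matrices of UMI counts per gene and cell barcode; the authors made these counts with Cell Ranger against mm10, per the submitters' processing notes, whose version the sources here do not state. Neither library is replicated, so no test was run. Barcodes with under 500 genes, under 1000 UMIs or over 20% mitochondrial UMIs were left out (0 and 4 in Control and NAPH). Scrublet's automatic threshold (scanpy 1.11.5) marked 0.243% and 0.109%, so the barcodes with the highest scores were removed at the expected rates of 2.64% and 2.95% (87 and 109). Raw UMIs were summed per class and library, expressed as CPM and compared as ratios with exact 95% intervals for counting error, divided by the median ratio of genes with at least 50 UMIs. The ratio code was tested on simulated data. Calls are folds of at least 1.5. Named members are, in each comparison, the 5 highest and 5 lowest with at least 100 UMIs (for ciliated over AT2, by the mean over both libraries), plus the mitochondrial genes, the isoform lists and up to 2 at each end of a related list; others were named after their values were seen. One member that the rule names is not reported here. Members and lists were chosen with earlier results of these data known. Alternatives covered filters, doublets, thresholds, scaling (edgeR 4.0.16 TMM), thinning and cell subsets; 2 depth restrictions were added after seeing the data. Promoters came from RefSeq and positions from GENCODE vM21. Of the nuclear members 12 overlap another gene on the same strand and 30 on the other, and reads there may be split. Of the same-strand neighbours, Yjefn3 (beside Ndufa13) had the most UMIs, 138 over both libraries. The others had at most 1 UMI or were not among the genes counted. Python 3.11.15, numpy 2.4.6, scipy 1.17.1, pandas 2.3.3 and R 4.3.3 were used.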

Additional observations from a re-analysis of the deposited data

Results flagged for a closer look

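Values that pointed in opposite ways between classes under the same contrast of NAPH over Control are given here on the log2 scale; none of these differences was tested, since there was 1 library per condition. The ratio of mitochondrial to nuclear UMIs was higher by 0.33 in ciliated cells, where AT2 cells differed by -0.35. The nuclear set relative to the median of all genes differed by -0.18 in ciliated cells and by -0.013 in secretory cells, where AT2 cells differed by 0.125. The secretory value is small and it was 0.58 on plain CPM and 0.0035 with class thresholds 2 times as high.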

How the results depend on the processing

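With 1 library per condition, no value carries the spread between animals, and intervals cover counting error only. No paired analysis was possible because each condition has 1 library and the labels give no shared replicate numbers. Secretory cells at totals of 6000 to under 10000 gave no value, since NAPH held 15 such cells, and Cox6a2 in Control ciliated cells of that range had no UMIs. The 2 depth restrictions were added after seeing the data. Of 535 single-gene values under the alternatives, 16 had the opposite sign. Set values below are log2, relative to the median of all genes unless another scaling is named; each listed value left the counting interval of the reported one or, for counts, differed by over 1.5 times, and the cause was not tested.

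In AT2 cells without Lrg1, the nuclear set was -0.0018 (AT2, opposite sign). In AT2 cells without Lrg1, the mitochondrial set was -0.21 (AT2). In AT2 cells without Lrg1, the mitochondrial to nuclear ratio was -0.21 (AT2). In AT2 cells without Lrg1, nuclear members past the fold numbered upward 0 (AT2) and downward 2 (AT2). Thinned to 3500 UMIs, the nuclear set was 0.088 (AT2). Thinned to 3500 UMIs, the mitochondrial set was -0.17 (AT2), -0.081 (secretory), 0.36 (ciliated), 0.087 (remaining), -0.40 (Control ciliated over AT2), 0.045 (NAPH ciliated over AT2, opposite sign). Thinned to 3500 UMIs, the mitochondrial to nuclear ratio was -0.26 (AT2), -0.066 (secretory), 0.55 (ciliated), 0.015 (remaining), -0.41 (Control ciliated over AT2), 0.40 (NAPH ciliated over AT2). Thinned to 3500 UMIs, nuclear members past the fold numbered upward 2 (ciliated), 1 (remaining) and downward 2 (secretory). Thinned to 3500 UMIs, single genes were mt-Nd1 0.077 (secretory, opposite sign), mt-Co1 0.24 (secretory, opposite sign), mt-Co3 0.24 (secretory, opposite sign). Above the higher lowest total, the nuclear set was 0.088 (remaining). Above the higher lowest total, the mitochondrial set was -0.24 (AT2), -0.41 (secretory), 0.13 (ciliated). Above the higher lowest total, the mitochondrial to nuclear ratio was -0.37 (AT2), -0.40 (secretory), 0.30 (ciliated), -0.032 (remaining). At totals of 6000 to under 10000, the nuclear set was 0.031 (AT2), -0.24 (ciliated), 0.060 (remaining), 0.11 (Control ciliated over AT2), -0.30 (NAPH ciliated over AT2). At totals of 6000 to under 10000, the mitochondrial set was -0.19 (AT2), 0.43 (ciliated), 0.047 (remaining), -0.53 (Control ciliated over AT2), -0.043 (NAPH ciliated over AT2). At totals of 6000 to under 10000, the mitochondrial to nuclear ratio was -0.22 (AT2), 0.67 (ciliated), -0.64 (Control ciliated over AT2), 0.26 (NAPH ciliated over AT2). At totals of 6000 to under 10000, nuclear members past the fold numbered upward 0 (AT2) and downward 1 (remaining). At totals of 6000 to under 10000, single genes were Cox6b2 -0.060 (ciliated, opposite sign). At totals under 15000, the nuclear set was -0.29 (ciliated), -0.46 (NAPH ciliated over AT2). At totals under 15000, the mitochondrial set was 0.28 (ciliated), -0.42 (Control ciliated over AT2), 0.0082 (NAPH ciliated over AT2, opposite sign). At totals under 15000, the mitochondrial to nuclear ratio was 0.57 (ciliated), -0.42 (Control ciliated over AT2), 0.47 (NAPH ciliated over AT2). At totals under 15000, nuclear members past the fold numbered downward 5 (ciliated). With thresholds 2 times as high, the nuclear set was 0.0035 (secretory, opposite sign), -0.23 (ciliated), 0.090 (remaining), -0.41 (NAPH ciliated over AT2). With thresholds 2 times as high, the mitochondrial set was -0.30 (secretory), 0.21 (ciliated), -0.016 (NAPH ciliated over AT2). With thresholds 2 times as high, the mitochondrial to nuclear ratio was -0.31 (secretory), 0.44 (ciliated), -0.41 (Control ciliated over AT2), 0.39 (NAPH ciliated over AT2). With thresholds 2 times as high, nuclear members past the fold numbered upward 1 (remaining) and downward 2 (secretory). With thresholds 2 times as high, single genes were mt-Co1 0.081 (secretory, opposite sign), mt-Co3 0.028 (secretory, opposite sign). With doublets kept, the nuclear set was -0.015 (Control ciliated over AT2), -0.40 (NAPH ciliated over AT2). With doublets kept, the mitochondrial set was -0.36 (secretory), -0.083 (NAPH ciliated over AT2). With doublets kept, the mitochondrial to nuclear ratio was 0.32 (NAPH ciliated over AT2). With edgeR TMM scaling, the nuclear set was -0.025 (secretory), -0.073 (Control ciliated over AT2), -0.41 (NAPH ciliated over AT2). With edgeR TMM scaling, the mitochondrial set was -0.23 (AT2), -0.39 (secretory), -0.46 (Control ciliated over AT2), -0.11 (NAPH ciliated over AT2). Over genes of at least 200 UMIs, the nuclear set was 0.11 (AT2), -0.11 (ciliated), 0.12 (remaining), 0.11 (Control ciliated over AT2), -0.27 (NAPH ciliated over AT2). Over genes of at least 200 UMIs, the mitochondrial set was -0.24 (AT2), 0.22 (ciliated), 0.11 (remaining), -0.28 (Control ciliated over AT2), 0.032 (NAPH ciliated over AT2, opposite sign). Over genes of at least 200 UMIs, nuclear members past the fold numbered upward 0 (secretory) and downward 0 (secretory), 1 (ciliated). As means over cells, the nuclear set was 0.10 (AT2), -0.28 (ciliated), 0.035 (remaining), -0.42 (NAPH ciliated over AT2). As means over cells, the mitochondrial set was -0.17 (AT2), -0.10 (secretory), 0.31 (ciliated), -0.41 (Control ciliated over AT2), 0.0035 (NAPH ciliated over AT2, opposite sign). As means over cells, the mitochondrial to nuclear ratio was -0.26 (AT2), -0.080 (secretory), 0.59 (ciliated), 0.037 (remaining), -0.42 (Control ciliated over AT2), 0.43 (NAPH ciliated over AT2). As means over cells, nuclear members past the fold numbered downward 2 (secretory). As means over cells, single genes were mt-Nd1 0.015 (secretory, opposite sign), mt-Co1 0.22 (secretory, opposite sign), mt-Co3 0.22 (secretory, opposite sign). With no count filter, the nuclear set was 0.14 (AT2), -0.055 (secretory), -0.22 (ciliated), 0.031 (remaining), -0.20 (Control ciliated over AT2), -0.56 (NAPH ciliated over AT2). With no count filter, the mitochondrial set was -0.21 (AT2), -0.42 (secretory), 0.11 (ciliated), 0.020 (remaining), -0.59 (Control ciliated over AT2), -0.27 (NAPH ciliated over AT2). With no count filter, nuclear members past the fold numbered upward 2 (secretory), 2 (ciliated), 1 (remaining) and downward 5 (ciliated). On plain CPM, the nuclear set was 0.22 (AT2), 0.58 (secretory, opposite sign), -0.12 (ciliated), 0.15 (remaining), 0.67 (Control ciliated over AT2), 0.33 (NAPH ciliated over AT2, opposite sign). On plain CPM, the mitochondrial set was -0.13 (AT2), 0.22 (secretory, opposite sign), 0.21 (ciliated), 0.14 (remaining), 0.29 (Control ciliated over AT2, opposite sign), 0.63 (NAPH ciliated over AT2, opposite sign). On plain CPM, nuclear members past the fold numbered upward 2 (AT2), 44 (secretory) and downward 0 (secretory). On plain CPM, single genes were Ndufb3 0.23 (secretory, opposite sign), mt-Nd1 0.34 (secretory, opposite sign), mt-Co1 0.57 (secretory, opposite sign), mt-Co3 0.55 (secretory, opposite sign). In remaining cells without leukocyte genes, the nuclear set was -0.0036 (remaining, opposite sign). In remaining cells without leukocyte genes, the mitochondrial set was 0.24 (remaining). In remaining cells without leukocyte genes, the mitochondrial to nuclear ratio was 0.25 (remaining). In remaining cells without leukocyte genes, nuclear members past the fold numbered upward 4 (remaining) and downward 6 (remaining). In remaining cells without leukocyte genes, single genes were Ndufa4 -0.0037 (remaining, opposite sign). Scaled by UMIs outside mitochondrial and secreted-product genes, the nuclear set was 0.11 (AT2), -0.12 (ciliated), 0.16 (remaining), 0.10 (Control ciliated over AT2), -0.13 (NAPH ciliated over AT2). Scaled by UMIs outside mitochondrial and secreted-product genes, the mitochondrial set was -0.24 (AT2), 0.21 (ciliated), 0.15 (remaining), -0.29 (Control ciliated over AT2), 0.16 (NAPH ciliated over AT2, opposite sign). In secretory cells without Upk3a and Spink5, the nuclear set was -0.079 (secretory). In secretory cells without Upk3a and Spink5, the mitochondrial set was -0.26 (secretory). In secretory cells without Upk3a and Spink5, the mitochondrial to nuclear ratio was -0.18 (secretory). In secretory cells without Upk3a and Spink5, nuclear members past the fold numbered upward 0 (secretory) and downward 2 (secretory). In secretory cells without Upk3a and Spink5, single genes were mt-Co1 0.17 (secretory, opposite sign), mt-Co3 0.052 (secretory, opposite sign).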
